A study of Mus musculus with 8 samples.

Results

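The Reg lectins Reg1, Reg3a, Reg3b, Reg3g and Reg4 and the antimicrobial and host-defence genes Retnlb, Lcn2, Lypd8, Saa1 and Saa3 were measured by RNA-seq in small intestine adenomas of mice with and without 14-3-3σ. These 10 genes were taken by their names from a sheet of 48413 genes, and all 10 passed the filter on low values that 17523 genes passed. Each library came from the adenoma tissue of 1 mouse on a C57BL/6 background, with 4 libraries per genotype. All mice carried ApcMin/+, an allele that truncates the tumour suppressor Apc and gives intestinal polyps. The first group was ApcMin/+ alone at 256 to 282 days of age, and the second was ApcMin/+/14-3-3σ-/-, here called knockout, at 144 to 148 days, so age and genotype cannot be told apart. The position of each adenoma along the small intestine is not given in the sources used here.

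Reg proteins are small secreted C-type lectins of the gut and the pancreas. In the mouse intestine Reg3b and Reg3g are made mainly by enterocytes and Paneth cells, bind bacterial cell walls and keep bacteria away from the epithelium, and both are induced through IL-22 and STAT3. Retnlb is a bactericidal protein of goblet cells, Lcn2 withholds iron from bacteria by binding their siderophores, Lypd8 coats flagellated bacteria, and the serum amyloid A proteins carry retinol and rise in acute inflammation.

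The targeted gene Sfn, which encodes 14-3-3σ, had normalised read counts of 6585 to 15968 in the ApcMin/+ libraries and of 0 to 1 in the knockout libraries (two-sided exact permutation p = 0.0286 over 70 arrangements, the smallest that 4 against 4 libraries allow). All 12 enterocyte markers passed the filter, and the colon markers Car1, Hoxb13 and Hoxd13 were at 7 or below in each library. The libraries summed to between 34182800 and 46707800 normalised read counts, and the depth before normalisation is unknown. High Xist (over 1000) marked 3 libraries, namely ApcMin/+ replicates 2 and 3 and the knockout library that has no replicate number, and Ddx3y on the Y chromosome was at 2 or below in them. Over all genes tested, 58 passed a limma adjusted p of 0.05 between the genotypes, which is 0.331%, with 33 higher and 25 lower in the knockout. Bulk tissue was sequenced, so fewer cells of a type and less RNA per cell cannot be told apart.

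None of the 10 genes passed the limma threshold between the genotypes (0 of 10, against 0.331% of all genes tested). At an unadjusted limma p under 0.05 there were 3 of 10, Reg3a, Reg3b and Reg4, all higher in the knockout, against 18.9% of all genes tested in either direction and 7.39% in that direction. The log2 difference, knockout minus ApcMin/+, was above 0 for 7 of the 10 and for 41% of all genes, and its median was 0.56 over the 10 and -0.07 over all genes tested. The values of the genotypes overlapped for all 10, while they did not overlap for 16.1% of all genes tested (5.5% with the knockout higher). A log2 difference of at least 1 in size was seen for 2 of the 10, Reg1 and Reg3b, and for 5.33% of all genes tested. All 10 had a standard error of the difference above the median of 0.19 over all genes tested. It ran from 0.24 for Reg4, larger than for 62.1% of tested genes, to 1.04 for Reg1, larger than for 99.1%.

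**Figure D1:**
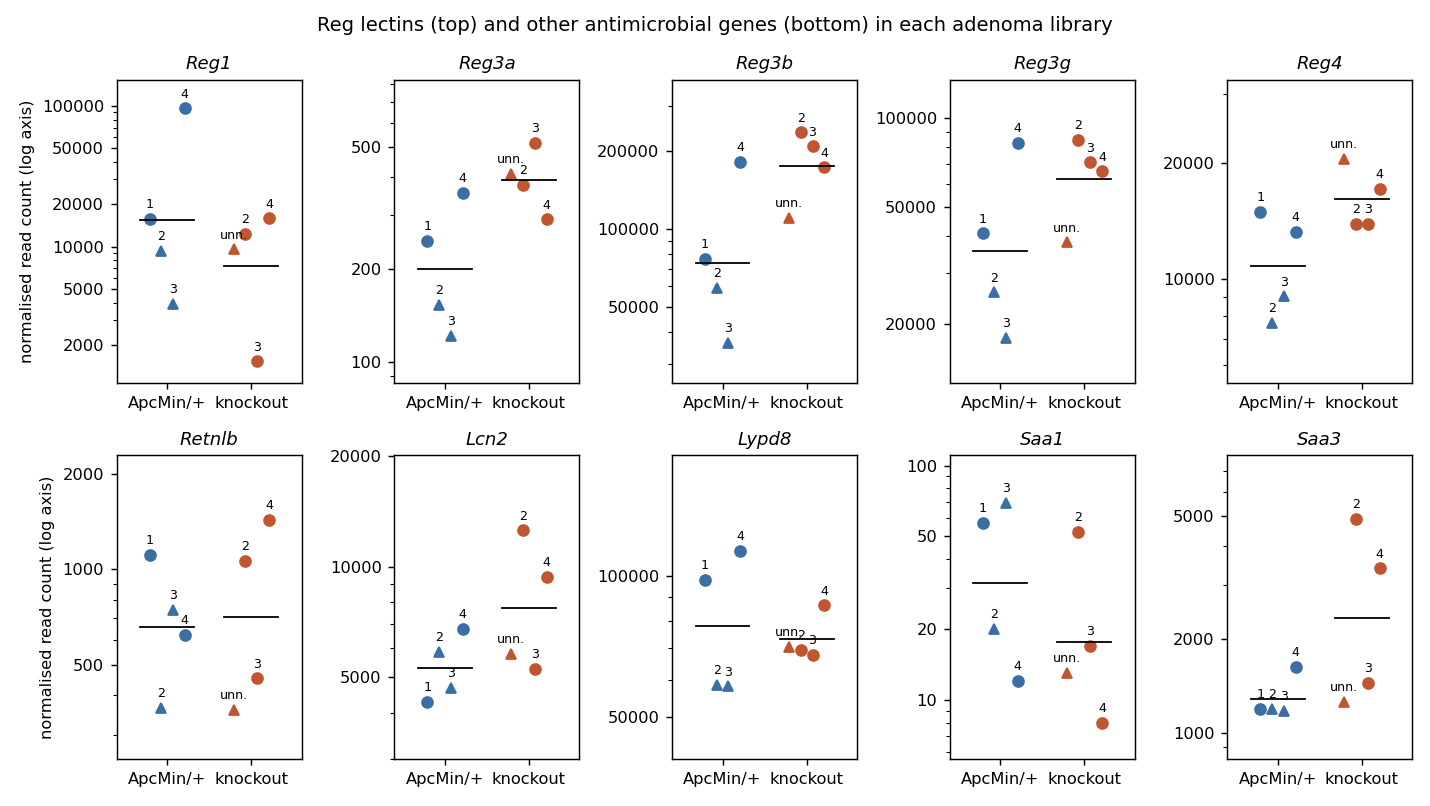
Normalised read counts of the 10 genes in the 4 ApcMin/+ and 4 knockout libraries, on log axes whose range differs between panels. Each point is a library labelled with its replicate number (unn., no number), triangles are the libraries with Xist above 1000, and bars are geometric means. The genotypes overlap in every panel, and ApcMin/+ replicate 4 stands far above the other ApcMin/+ libraries for Reg1.

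The genes spanned a wide range of levels. Levels of different genes were compared as normalised read counts per kilobase of annotated exon. In ApcMin/+ adenomas the order from high to low was Reg3b, Lypd8, Reg1, Reg3g, Reg4, Lcn2, Retnlb, Saa3, Reg3a and Saa1, from 77270 ± 56250 per kilobase for Reg3b to 15.9 ± 11.2 for Saa1 (SD, n = 4). The ranges of neighbours in this order were apart for 4 of 9 pairs: Reg4 lay above Lcn2, Lcn2 above Retnlb, Saa3 above Reg3a and Reg3a above Saa1. Neighbours among the 5 highest genes overlapped, and Reg3b exceeded Lypd8 in only 2 of 4 ApcMin/+ libraries. In the knockout adenomas Reg3b was at 159500 ± 47750 per kilobase, and its range lay apart from that of Lypd8 (57310 ± 6762). Lypd8 in turn lay apart from Reg3g (30690 ± 9258), and Reg3a from Saa1. The other 6 neighbouring pairs of the knockout order overlapped. The 10 genes together took between 0.386% of the library total, in ApcMin/+ replicate 3, and 1.20%, in knockout replicate 2.

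Reg3b and Reg3g belong to a family cluster. Reg1, Reg2, Reg3a, Reg3b, Reg3d and Reg3g, 6 genes in all, lie on chromosome 6 between 78370657 and 78468872 (GRCm38), with Reg3b at one end (78370657 to 78373466, plus strand) and Reg3g at the other (78466269 to 78468872, minus strand). Their promoters, from 250 bases before to 50 after the start of transcription, are shown because both genes varied together over the libraries. The sequences are RefSeq's on GRCm38.p6, and each reads 5′ to 3′ along the strand of its gene, at chr6:78370635-78370934 for Reg3b and at chr6:78468825-78469124 for Reg3g. Positions in these windows count from the RefSeq start, whereas the gene intervals above are GENCODE's. For Reg3b the RefSeq start lies inside the GENCODE interval, so most of its window does too. Capitals near the end mark the longest run of letters that both share, 29 bases from position -20 to 9 around the start site, and the earlier capitals in Reg3b mark a STAT motif.
Reg3b: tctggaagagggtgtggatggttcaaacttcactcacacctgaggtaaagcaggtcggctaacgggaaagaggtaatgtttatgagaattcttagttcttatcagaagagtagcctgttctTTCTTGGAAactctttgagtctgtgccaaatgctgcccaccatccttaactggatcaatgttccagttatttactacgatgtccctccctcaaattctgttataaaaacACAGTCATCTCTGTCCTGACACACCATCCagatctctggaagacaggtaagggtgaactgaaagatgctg
Reg3g: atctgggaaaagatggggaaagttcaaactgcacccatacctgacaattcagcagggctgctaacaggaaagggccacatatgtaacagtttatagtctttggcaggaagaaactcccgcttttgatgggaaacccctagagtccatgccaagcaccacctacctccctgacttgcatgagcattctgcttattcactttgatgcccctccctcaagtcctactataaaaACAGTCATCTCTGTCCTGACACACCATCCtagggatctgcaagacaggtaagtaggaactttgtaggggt
In a global alignment 210 of 294 aligned bases were identical (71.4%), with 12 gap positions. The shared run occurred in no other of the 32851 promoters of the table. The STAT motif, TTCNNNGAA on either strand, was found at position -129 of Reg3b and not in these 300 bases of Reg3g, and 8.30% of all promoters in the table hold it. Among the 9 of 10 genes with a promoter in the table, Reg3b alone held the STAT motif, and 0 held the NF-kB motif searched on both strands, which 1.63% of all promoters hold. A motif match is a description of letters in this window only.

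Reg3b was among the most abundant transcripts of the set in every adenoma. Its normalised read counts were 76781, 58850, 36058 and 181298 in ApcMin/+ replicates 1 to 4. The knockout counts were 110156 in the unnumbered library and 236447, 208785 and 173148 in replicates 2, 3 and 4. All 4 knockout libraries lay above ApcMin/+ replicates 1 to 3, while ApcMin/+ replicate 4 lay above 2 of them. The log2 difference was 1.25 ± 0.50 (SE; 95% interval 0.12 to 2.38), a 2.38-fold difference of geometric means that did not pass over all genes (limma adjusted p = 0.231). Within the 6 libraries of the sequencing order that holds both genotypes it was 1.38 (limma adjusted p = 0.286). The 5 libraries with low Xist gave 0.79 (limma adjusted p = 0.206).

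Reg3g, whose protein kills Gram-positive bacteria, followed the same libraries. Its counts were 40733, 25690, 18053 and 82785 in ApcMin/+ replicates 1 to 4, and 37972 in the unnumbered knockout library and 84560, 70908 and 66081 in knockout replicates 2, 3 and 4. ApcMin/+ replicate 3 was lowest and knockout replicate 2 highest for both genes. For Reg3g, knockout replicate 2 alone lay above every ApcMin/+ library. The other knockout libraries fell among the ApcMin/+ values, the unnumbered one below ApcMin/+ replicate 1 as well as replicate 4. The log2 difference of 0.82 ± 0.47 (SE; 95% interval -0.25 to 1.89) did not pass (limma adjusted p = 0.376). The 5 libraries with low Xist gave 0.34. Leaving out ApcMin/+ replicate 3 gave 0.49, and leaving out replicate 4 of the same genotype gave 1.23.

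The ratio of Reg3b to Reg3g separated the genotypes although neither gene did. Reads of Reg3b per read of Reg3g were 1.88, 2.29, 2.0 and 2.19 in ApcMin/+ replicates 1 to 4, which average 2.09 ± 0.183 (SD, n = 4). In the knockout the ratio was 2.90 in the unnumbered library and 2.80, 2.94 and 2.62 in replicates 2, 3 and 4, averaging 2.82 ± 0.144 (SD, n = 4). All 4 knockout ratios lay above all 4 ApcMin/+ ratios, including that of ApcMin/+ replicate 4, whose counts of both genes resembled those of the knockout. The difference of log2 ratios was 0.43 (two-sided exact permutation p = 0.0286, the smallest possible with 70 arrangements). This ratio was singled out after its values were seen, and it is one of 10 pairs among the 5 Reg lectins, over which its adjusted exact permutation p was 0.143. Of these 10 pairs, 2 did not overlap between the genotypes, the other being Reg1 to Reg3b, whose log2 ratio had a difference of -2.32 with the same exact permutation p before and after adjustment; its SD was 0.972 in ApcMin/+ and 1.71 in knockout libraries. As background, the log2 ratio of Reg3b to another tested gene was higher in all knockout libraries for 7.82% of the 17522 other genes. Within the shared sequencing order the log2 ratio differed by 0.44 (exact permutation p = 0.0667, the smallest for 2 against 4 libraries). The separation over all libraries already fixes this p. Of the 31-base words of the annotated Reg3b transcripts, 0.446% also occur in Reg3g, and how reads were assigned between the genes was not tested.

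**Figure D2:**
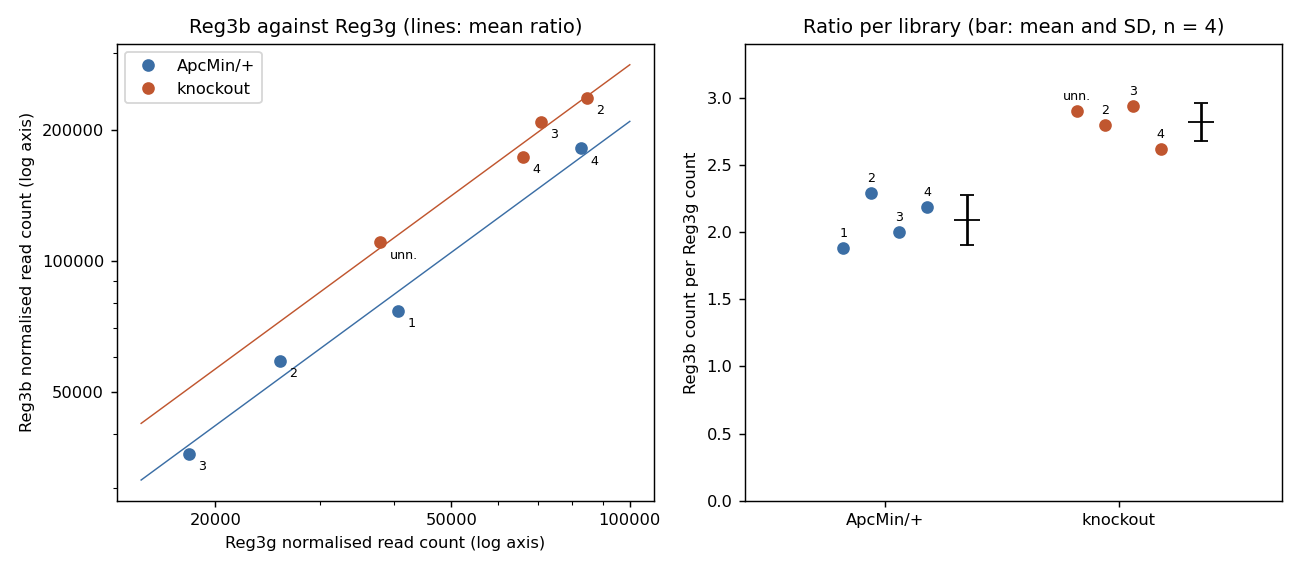
Reg3b against Reg3g in each library (left, log axes, lines at the mean ratio of each genotype) and the ratio of their normalised read counts per library (right, with mean and SD, n = 4). The knockout ratios, 2.62 to 2.94, lie above the ApcMin/+ ratios, 1.88 to 2.29.

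Reg3a was low in these adenomas, and 3 of 4 knockout libraries lay above every ApcMin/+ library. Its counts were 248, 153, 122 and 355 in ApcMin/+ replicates 1 to 4, and 408 in the unnumbered knockout library and 377, 517 and 291 in knockout replicates 2, 3 and 4. Only ApcMin/+ replicate 4 and knockout replicate 4 crossed. The log2 difference was 0.95 ± 0.34 (SE; 95% interval 0.16 to 1.74; limma adjusted p = 0.206), and it was 0.37 in the 5 libraries with low Xist. The remaining cluster genes were close to the floor and were not tested: Reg2, a pancreatic Reg gene, was at 13 or below and Reg3d, related to the islet factor INGAP of hamsters, at 18 or below. Reg3d counts were 3 to 7 in ApcMin/+ and 9 to 18 in knockout libraries, which do not overlap. How often genes below the filter separate in this way was not counted, so this separation has no background.

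Reg1, best known as a pancreatic stone protein and a regeneration factor, varied most. Its counts in ApcMin/+ replicates 1 to 4 were 15659, 9348, 3938 and 95993. In the knockout it was at 9559 in the unnumbered library and at 12374, 1527 and 15873 in replicates 2, 3 and 4. The highest ApcMin/+ library exceeded the lowest 24.4-fold and the highest knockout library exceeded the lowest 10.4-fold, so the log2 difference of -1.07 ± 1.04 (SE; 95% interval -3.44 to 1.30) was about as large as its error (limma adjusted p = 0.601). The difference was -0.19 when ApcMin/+ replicate 4 was left out, -0.31 when knockout replicate 3 was, and -1.72 when ApcMin/+ replicate 3 was. The libraries with low Xist gave -2.53. The summed level of 7 genes of the proximal small intestine, 6 of them tested, was highest in ApcMin/+ replicate 4 (82099) too, and lay between 19105 and 36161 in the other ApcMin/+ libraries. In the knockout that sum was 36052 in the unnumbered library and 28378, 20202 and 53256 in replicates 2, 3 and 4. Its lowest and highest knockout libraries were those of Reg1, while the unnumbered library and replicate 2 stood in the opposite order. The listed genes were not alike. Pdx1, a transcription factor of the duodenum, was at 1222, 555, 397 and 3383 in ApcMin/+ replicates 1 to 4 and at 518, 652, 125 and 1162 in the unnumbered knockout library and knockout replicates 2, 3 and 4, the order of Reg1 in both genotypes. Cybrd1 had the order of Reg1 in both genotypes too. It was at 7812, 4838, 2304 and 35411 in ApcMin/+ replicates 1 to 4. Its knockout counts were 8691 in the unnumbered library and 9881, 3164 and 23103 in replicates 2, 3 and 4. Slc40a1, Gata4 and Adh6a had the order of Reg1 in ApcMin/+ only. Onecut2 was lowest of the ApcMin/+ libraries in replicate 4 (8173), Gata4 was highest of the knockout libraries in replicate 3 (4564), and Adh6a was lowest of them in replicate 4 (3048). The part of gut position in the spread of Reg1 was not tested. Of the 11 pancreatic acinar markers, 9 were at 10 or below in every library, among them Prss2, Cpa1 and Pnlip, and the sum of the list, 4853 to 6711 in ApcMin/+ and 3428 to 5246 in knockout libraries, came mostly from Cela1.

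Reg4, a lectin of secretory and enteroendocrine cells that lies outside the cluster on chromosome 3 (98222156 to 98236748, GRCm38), varied least among the lectins. Its counts were 14912, 7682, 9018 and 13225 in ApcMin/+ replicates 1 to 4, and 20468 in the unnumbered knockout library and 13899, 13881 and 17063 in knockout replicates 2, 3 and 4. ApcMin/+ replicate 1 lay above 2 of the knockout libraries. The log2 difference was 0.58 ± 0.24 (SE; 95% interval 0.03 to 1.12; limma adjusted p = 0.249). The 5 libraries with low Xist gave 0.08, and ApcMin/+ replicates 2 and 3, which have high Xist, were the lowest libraries for Reg4. The 10 enteroendocrine markers summed to 1988 to 4361 in ApcMin/+ and 1678 to 2303 in knockout libraries, with 3 of 10 above 0 and 7 below.

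Lcn2 and Saa3 were highest in the same pair of knockout libraries. Lcn2 was at 4278, 5847, 4664 and 6785 in ApcMin/+ replicates 1 to 4, and at 5790 in the unnumbered knockout library and 12567, 5265 and 9359 in knockout replicates 2, 3 and 4. Saa3, a serum amyloid A made by mouse epithelium, macrophages and fat, was at 1194, 1193, 1174 and 1627 in ApcMin/+ replicates 1 to 4. Its knockout counts were 1254 in the unnumbered library and 4916, 1449 and 3392 in replicates 2, 3 and 4. Knockout replicates 2 and 4 lay above every ApcMin/+ library for both genes, whereas the unnumbered library and knockout replicate 3 lay within the ApcMin/+ range. The log2 differences were 0.54 ± 0.29 for Lcn2 and 0.87 ± 0.42 for Saa3 (SE; limma adjusted p = 0.341 and 0.298). They were 0.31 and 0.51 without knockout replicate 2. With array weights, whose estimation stopped before it converged, they were 0.16 and 0.37.

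Markers of neutrophils, which also store Lcn2 in their granules, were high in the same libraries. The 10 neutrophil markers summed to 347, 513, 319 and 852 in ApcMin/+ replicates 1 to 4, and to 1052 in the unnumbered knockout library and 3188, 1094 and 2147 in knockout replicates 2, 3 and 4. All 7 tested markers had a difference above 0, 0 of 7 passed the limma threshold, and 0 of the 10 were at 0 in every library, with Mpo and Elane at 6 or below. Macrophage markers, another source of Saa3, summed to 4071 to 5737 in ApcMin/+ and 4683 to 6452 in knockout libraries, with 5 of 8 tested markers above 0. Knockout replicate 2 had the highest sum, but knockout replicate 4, at 4745, lay below ApcMin/+ replicates 2 and 4. Of 6 adipocyte markers, Adipoq and Lep were at 0 in all 8 libraries and Plin1 and Cfd at 4 or below, while Lpl was at 76 to 192 and Cidec at 853 to 3182. The list summed to 1017 to 3311 in ApcMin/+ and 1262 to 2212 in knockout libraries. The part of neutrophils, macrophages and adipocytes in the levels of Lcn2 and Saa3 was not tested.

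Saa1, mainly a liver gene, was near the floor. Its counts were 57, 20, 69 and 12 in ApcMin/+ replicates 1 to 4 and 13, 52, 17 and 8 in the unnumbered knockout library and knockout replicates 2, 3 and 4. High and low libraries occurred in both genotypes, and the log2 difference was -0.80 ± 0.71 (SE; limma adjusted p = 0.564). Single libraries moved it: it was -0.43 when ApcMin/+ replicate 3 was left out, -0.45 when knockout replicate 4 was, -1.24 when ApcMin/+ replicate 4 was and -1.30 when knockout replicate 2 was. Saa1 lies beside Saa2, Saa3 and Saa4 on chromosome 7 (46740497 to 46742980 for Saa1 and 46711998 to 46715700 for Saa3, GRCm38). Saa1 and Saa2 are near copies with 46.0% of the 31-base words of Saa1 in common, and RefSeq lists each symbol as a synonym of the other, so the split between them is uncertain. Saa2 was at 9 or below and Saa4 at 10 or below in every library, and neither was tested. The counts of Saa4 did not overlap, 2 to 3 in ApcMin/+ and 4 to 10 in knockout libraries. As for Reg3d, that separation near the floor has no background. Saa1 was not high in the unnumbered knockout library, where the hepatocyte genes Fga, Fgb and Serpina1a reached 111, 104 and 47 against 3 or below in the other 7 libraries. Of the 9 hepatocyte markers, Alb (3522) and Ahsg (124) were also highest in that library, while Ttr (335), Apoh (36), Cyp2e1 (9) and Hp (2344) were not.

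Retnlb and Lypd8 had the smallest differences between the genotypes over the 8 libraries. Retnlb counts were 1110, 365, 743 and 619 in ApcMin/+ replicates 1 to 4, and 359 in the unnumbered knockout library and 1061, 452 and 1435 in knockout replicates 2, 3 and 4. The lowest library of each genotype (365 and 359) and its highest (1110 and 1435) lay close together. The log2 difference was 0.10 ± 0.50 (SE; 95% interval -1.03 to 1.23; limma adjusted p = 0.933), an interval that holds a doubling as well as a halving, and its sign turned when ApcMin/+ replicate 2, knockout replicate 2 or knockout replicate 4 was left out. Goblet cell markers summed to 145706 to 428309 in ApcMin/+ and 252371 to 314297 in knockout libraries, with 0 of 10 at 0 and 0 passing. Among the relatives of Retnlb, Retn was at 0 in all libraries and Retnla at 4 or below. Retnlg, which neutrophils express, was at 19 to 77 in ApcMin/+ and 93 to 333 in knockout libraries (log2 difference 2.35, limma adjusted p = 0.124).

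Lypd8, a surface and secreted protein of enterocytes, was abundant and even in the knockout. Its counts were 97962, 58526, 58110 and 112964 in ApcMin/+ replicates 1 to 4, and 70394 in the unnumbered knockout library and 69497, 67919 and 86514 in knockout replicates 2, 3 and 4. All 4 knockout values fell into the gap between the low pair and the high pair of ApcMin/+ libraries. The log2 difference was -0.10 ± 0.28 (SE; 95% interval -0.73 to 0.53; limma adjusted p = 0.880). Leaving out ApcMin/+ replicate 1 gave 0.01 and leaving out ApcMin/+ replicate 4 gave 0.08, so its sign depended on single libraries. The 5 libraries with low Xist gave -0.50 ± 0.22 (SE; limma adjusted p = 0.157). The 12 enterocyte markers summed to 164143 and 168039 in ApcMin/+ replicates 2 and 3, the low pair, and to 483597 and 597576 in replicates 1 and 4. They lay between 354341 and 539850 in the knockout libraries, and 11 of 12 had a difference above 0, with 0 passing. The part of enterocyte content in the levels of Lypd8 and of the Reg3 genes was not tested. The Ly6 family relatives Lypd1 and Lypd6b had log2 differences of -0.87 and -0.70 (limma adjusted p = 0.321 and 0.730), and Lypd6b ranged from 8 to 346 within ApcMin/+.

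**Figure D3:**
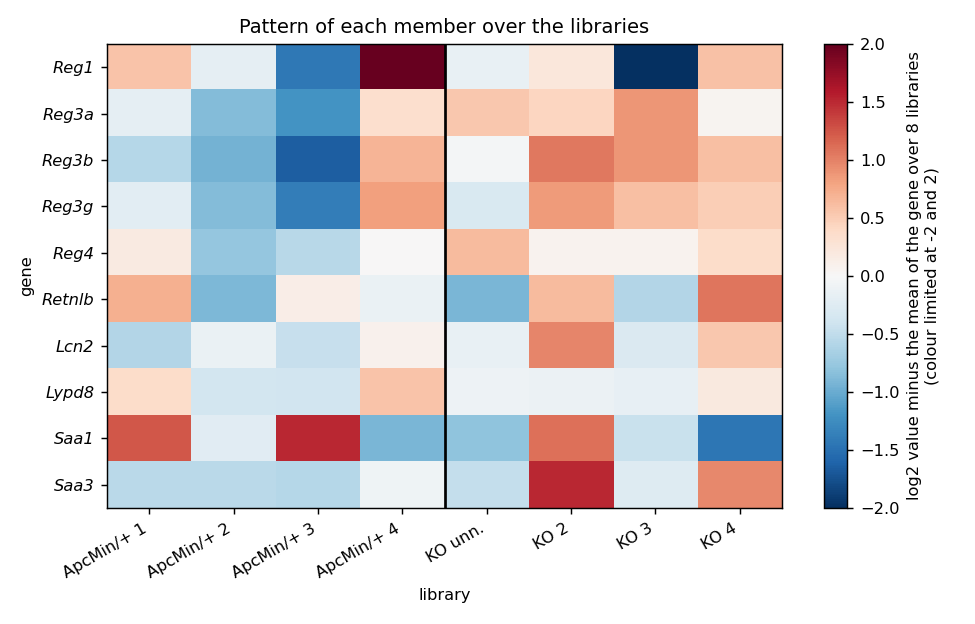
Each gene's log2(value + 1) in each library minus its mean over the 8 libraries, with colour limited at -2 and 2 and the genotypes separated by the line. Reg3a, Reg3b and Reg3g are low in ApcMin/+ replicates 2 and 3, and Lcn2 and Saa3 are high in knockout replicates 2 and 4.

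Single libraries were extreme for several of the genes at once. Knockout replicate 2 was the highest library for 4 of the 10 genes, Reg3b, Reg3g, Lcn2 and Saa3, and ApcMin/+ replicate 3 was the lowest for 5 of 10, Reg3a, Reg3b, Reg3g, Lypd8 and Saa3. Within ApcMin/+, replicates 2 and 3, with high Xist, lay below replicates 1 and 4 for 7 of the 10 genes, with log2 gaps of -2.68 for Reg1, -1.36 for Reg3b and -1.43 for Reg3g. They lay above both others for 0 of 10. How many of all genes tested split the ApcMin/+ libraries in this way was not counted, so 7 of 10 has no background. The deposited normalisation had removed a direction that mainly sets replicates 1 and 2 against 3 and 4, so these libraries are not exchangeable. With the libraries of high Xist as a covariate the differences between genotypes were 0.80 for Reg3a, 0.96 for Reg3b, 0.51 for Reg3g and -1.40 for Reg1, and none passed. Only 1 knockout library had high Xist, so libraries of high and low Xist could not be compared within the knockout.

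**Figure D4:**
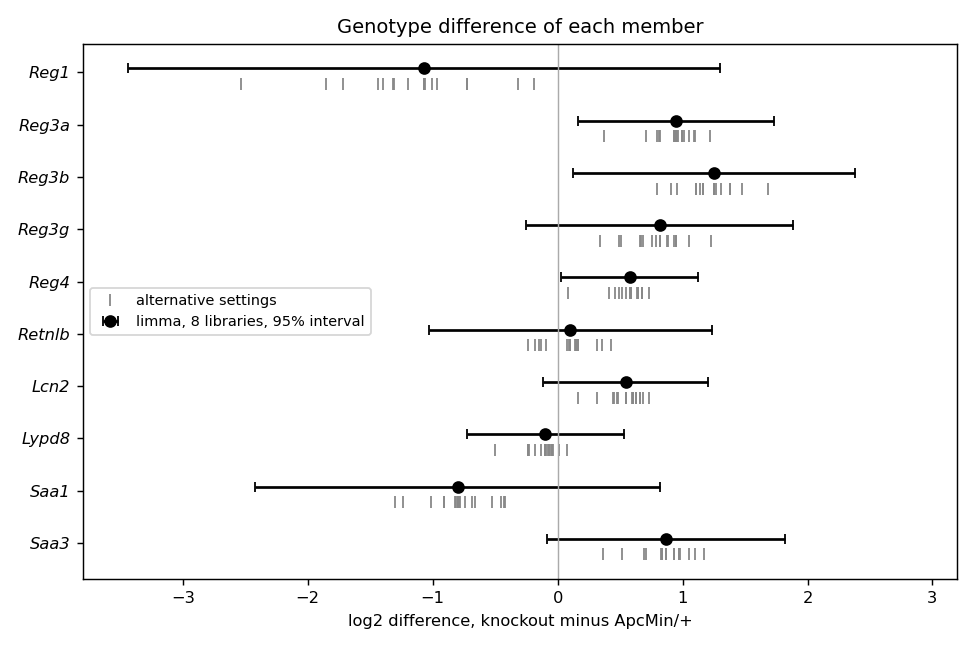
Log2 difference, knockout minus ApcMin/+, of each gene with its 95% interval in the limma fit of 8 libraries (points and bars) and its value under each alternative setting (ticks). Of the points, 7 lie above 0, the interval is widest for Reg1, and ticks of Retnlb and Lypd8 lie on both sides of 0.

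Cytokines and sensors that induce these genes were read from a list of 20, of which 16 were tested and 0 passed the limma threshold. The median log2 difference was 0.28, with 12 of 16 above 0. The 4 with the smallest p were Il6, Il11, Il1b and Il23a. Il6 was at 22 to 36 in ApcMin/+ and 66 to 269 in knockout libraries (log2 difference 2.33, limma adjusted p = 0.0950). Il11, an IL-6 family cytokine of fibroblasts, was at 414 to 711 and 1030 to 1981 (1.23, limma adjusted p = 0.0950). The inflammasome product gene Il1b and the IL-23 subunit gene Il23a had log2 differences of 1.12 and 1.14 (limma adjusted p = 0.171 and 0.191). Knockout replicate 2 was the highest library for Il11, Il1b and Il23a, as it was for Reg3b, Reg3g, Lcn2 and Saa3. The direct inducers Il22 and Il17a were near the floor and not tested. Il22 was at 0 to 3 in ApcMin/+ and 0 to 8 in knockout libraries, and Il17a was at 2 to 5 and 7 to 35. Stat3, the factor downstream of IL-22 and IL-6, had a log2 difference of 0.01 ± 0.13, and its feedback inhibitor Socs3 one of 0.21 ± 0.10 (SE; limma adjusted p = 0.983 and 0.294).

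Receptors for these cytokines and for the proteins themselves had differences on both sides of 0. Of 16 listed, 14 were tested, 0 passed, and the median log2 difference was 0.01, with 7 above and 7 below 0. The 4 with the smallest p were Il1r1 (0.51), Il13ra1 (0.46), Fpr2 (1.25) and Il17rc (-0.42), with limma adjusted p of 0.176, 0.247, 0.250 and 0.286. Fpr2, a formyl peptide receptor of phagocytes that also binds serum amyloid A, was low, at 9 to 49 in ApcMin/+ and 27 to 66 in knockout libraries. Il22ra1, the epithelial receptor chain for IL-22, was at 373 to 1091 and 619 to 1220.

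Other defence genes, a list that also holds genes of myeloid cells, did not move as one group. Of 28 listed, 25 were tested, 12 lay above 0 and 13 below, the median was -0.10, and Chil3 alone passed. Chil3, a chitinase-like lectin of myeloid cells, rose from 45 to 122 in ApcMin/+ to 309 to 441 in knockout libraries (log2 difference 2.28 ± 0.31 SE; limma adjusted p = 0.0294). S100a8, a metal-binding neutrophil protein gene, averaged 74.0 in ApcMin/+ and 454 in knockout libraries, which did not overlap (2.81, limma adjusted p = 0.108). The Paneth lysozyme gene Lyz1 was at 13564 to 31310 and 35051 to 57724 (1.25, limma adjusted p = 0.118). Fut2, which fucosylates surface glycans, was at 4276 to 5393 and 3285 to 3828 (-0.43, limma adjusted p = 0.136). Paneth cell markers, another source of Reg3 proteins, summed to 42316 to 83615 in ApcMin/+ and 83995 to 125525 in knockout libraries, with 7 of 9 tested above 0, 0 passing and 0 of 9 at 0. Lyz1 was the largest of the 9 in every library, and the sum without it was not taken. The genotypes did not overlap for 3 of the 9, against 16.1% of all genes tested. These were Lyz1 and Mmp7, higher in the knockout, and Ang4, lower (log2 difference -1.90, limma adjusted p = 0.138). The part of Paneth cells in the Reg3 levels was not tested.

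Genes whose pattern over the 8 libraries was most like that of a member were found by the root mean square difference of gene-centred log2 values among 13468 candidates. For Reg3g the nearest were the neutrophil surface gene Ly6g at 0.17, the immunoglobulin segment Ighv2-9-1 at 0.23 and the Ly6 family gene Gml at 0.28, and Reg3b stood at 0.23 and Reg3a at 0.42. Ly6g was low, at 23 to 93 in ApcMin/+ and 37 to 83 in knockout libraries. For Lcn2 they were the platelet chemokine gene Pf4 at 0.11, the endothelial claudin gene Cldn5 at 0.15 and Ms4a6d, a myeloid membrane gene, at 0.15, while Saa3 stood at 0.31. For Retnlb they were Plac9b, Igkv12-41 and Mdk, at 0.36, 0.40 and 0.41, and no other member came nearer than Saa3 at 0.63 and Lypd8 at 0.65.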

How the data were processed

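The authors deposited 1 sheet of read counts normalised by RUVs, a method that removes unwanted factors estimated among replicates, and rounded to whole numbers, per the file headers. These deposited values were treated as a score and not as counts. Per the submitters' processing notes, reads were processed on mm10. For the aligner, counter, annotation, RUVs settings and raw depth, nothing is stated in the sources used here. Libraries were strand-specific, per the labels' protocols. Whether the counting used strand is not given. Of 48440 rows, 27 with names turned into dates were left out. Columns belonging to other samples numbered 0. In the labels, the mouse number of a knockout column belongs to an ApcMin/+ mouse, so that column has a genotype and no replicate number. ApcMin/+ replicates 1 and 2 share a sequencing order with all knockout libraries, and ApcMin/+ replicates 3 and 4 come from another.

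Genes with at least 10 in at least 4 libraries were fitted with limma 3.58.1 in R 4.3.3 (eBayes with trend) on log2(value + 1), with the Benjamini-Hochberg adjustment over all genes tested and a threshold of 0.05. Differences on this scale understate changes of low genes. Among 12052 genes with all values at 100 or above, 1 of 6 directions within genotypes had been removed (singular value 0.0954 against 53.8 for the largest). It mainly sets ApcMin/+ replicates 1 and 2 against 3 and 4, that is, the sequencing orders of the ApcMin/+ libraries. That direction was a covariate, which left 5 residual degrees of freedom. The normalised libraries are not exchangeable, so exact permutation p-values can be too small. The fit was tested on simulated data.

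Gene positions and exon lengths came from GENCODE M21 (GRCm38, also called mm10), and promoters from RefSeq on GRCm38.p6. Promoters were aligned with Biopython 1.88. The members, lists and alternatives were chosen with earlier results of these data known. Named were all members and family relatives, the 4 genes of smallest p and any gene that passed in each of the lists of inducers, receptors and defence genes, and the 3 most alike genes for Reg3g, Retnlb and Lcn2 with a mean log2 of at least 5. Marker lists were summed, and the single markers printed, like Pdx1, Stat3, Socs3, Il22, Il17a, Il22ra1 and the Reg3b to Reg3g ratio, were picked with values in view. The settings varied were the pseudocount (0.5, 5), the filter (none, or 50), median-ratio and quantile scaling, genotype alone, sequencing order as covariate, the shared order only, array weights, robust eBayes, libraries of high Xist as covariate or left out, and leaving out each library.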

Additional observations from a re-analysis of the deposited data

Results flagged for a closer look

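In 22 groups of 4 libraries examined, 3 had a library far from the other 3, where chance gives about 1 in 20. Reg1 was 95993 in ApcMin/+ replicate 4, with 3938 to 15659 in the other ApcMin/+ libraries. Saa3 was 1627 in ApcMin/+ replicate 4, with the other ApcMin/+ libraries within 1174 to 1194. Lypd8 was 86514 in knockout replicate 4, with 67919 to 70394 in the other knockout libraries.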

How the results depend on the processing

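None of the 10 genes passed the threshold under any of the 21 alternatives, and 8 of them kept their direction in each alternative that gave a value (20 for Saa1, which a filter of 50 removes). The smallest limma adjusted p was 0.0648, for Reg3b without ApcMin/+ replicate 4. Retnlb turned to -0.15 with array weights, whose estimation stopped before it converged, and to -0.13 with libraries of high Xist as covariate, and lay between -0.24 and 0.43 when a library was left out. Lypd8 lay between -0.24 and 0.079 when a library was left out. The count of 58 genes was 426 with genotype alone, 18 with sequencing order as covariate, 16 in the shared order, 13 with array weights, 2194 in the 5 libraries with low Xist and 21 to 346 when a library was left out: 346 without ApcMin/+ replicate 2, 144 without ApcMin/+ replicate 4, 33 without knockout replicate 2, 21 without knockout replicate 3, and 25 without knockout replicate 4 or without the unnumbered library. The cause was not tested. Median-ratio scaling called 38 genes higher and 18 lower, in place of 33 and 25, and quantile scaling called 40 and 20. The Reg3b to Reg3g log2 difference was 0.44 in the shared order (exact permutation p = 0.0667). Without the libraries of high Xist the value was 0.45 (exact permutation p = 0.10). Leaving out a single library gave 0.38 to 0.48 (exact permutation p = 0.0286). Each p is the smallest possible for its libraries. The ratios of the genotypes do not overlap over all libraries, so no subset could give a larger p than its smallest. These p-values therefore do not test the ratio anew. No paired analysis was possible because nothing in the labels pairs a mouse of 1 genotype with a mouse of the other, and the 1 mouse number that 2 columns of different genotype share belongs to an ApcMin/+ mouse in the labels. Unknown depth limits the precision of Saa1 and of the genes near the floor.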

Other observations

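Il22ra2, a soluble receptor that binds IL-22, was at 106 in knockout replicate 2 and at 8 or below in the other 7 libraries. Haptoglobin (Hp), an acute phase gene, was at 1304 to 2849 in ApcMin/+ libraries. Its knockout counts were 2344 in the unnumbered library and 8434, 3313 and 6731 in replicates 2, 3 and 4, so the highest were the libraries with the highest Lcn2 and Saa3 (log2 difference 1.34, limma adjusted p = 0.169). Both genes were picked with their values in view.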
